A study of Mus musculus with 16 samples.

Results

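The CatSper genes examined here were the 7 listed genes Catsper1, Catsper2, Catsper3, Catsper4, Catsperb, Catsperd, and Catsperg1, out of 21938 protein-coding genes of the GENCODE vM21 annotation (mm10) on the 19 autosomes and the X and Y chromosomes. They were listed by name, without a threshold on any measured value, and with earlier results of these data known. The data were 16 AutoCUT&RUN libraries, a method in which an antibody-tethered nuclease cuts out the DNA fragments that carry a histone mark. The cells were haploid spermatids sorted live from the testes of mice of 2 months of age. KO animals carried mutations in all 3 X-linked genes of H2A.B, a short histone H2A variant of the testis, in a single CRISPR/Cas9 strain, and WT animals were their siblings. Each of 2 sibling pairs gave a KO and a WT library for H3K4me3, H3K27me3, H3K9me3, and IgG, so every group held 2 libraries.

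CatSper is the calcium channel of the sperm tail. CATSPER1 to CATSPER4 form its pore, whereas the products of Catsperb, Catsperd, and Catsperg1 are accessory subunits that span the membrane beside it. Calcium entry through the channel drives the hyperactivated beating that sperm need to fertilize, and its genes are known for transcription in the testis, in large part after meiosis. H3K4me3 marks active promoters, H3K27me3 marks Polycomb-repressed domains, H3K9me3 marks constitutive heterochromatin, and IgG gives the background of the method.

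Each library held between 159611 (IgG) and 6746382 (H3K9me3) fragments with distinct coordinates, and a level is the count of distinct fragments within 1 kb of the gene start, by fragment midpoints, per 1000000 distinct fragments of the library (CPM). Starts of the 6 spermatid marker genes had a median H3K4me3 level of 12.6 (range 1.54 to 20.8), against at most 2.44 for the 14 markers of Sertoli cells, Leydig cells, spermatogonia, and blood cells. The H2A.B genes themselves held 2 to 8 fragments each in either genotype, which is too few to read the mutation.

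The 7 genes lie on 7 different chromosomes. Catsper1 spans chr19:5335741-5344280 (+), Catsper2 spans chr2:121392631-121413792 (-), Catsper3 spans chr13:55784568-55808998 (+), and Catsper4 spans chr4:134211970-134227383 (-). Catsperb spans chr12:101404653-101626009 (+), Catsperd spans chr17:56628143-56664456 (+), and Catsperg1 spans chr7:29181321-29214035 (-). The start window of 3 of them was shared with or lay close to another gene start. Pdia3, which encodes a protein disulfide isomerase of the endoplasmic reticulum, starts 17 bp inside Catsper2 on the opposite strand. The antisense RNA 4930451E10Rik starts 63 bp upstream of Catsper3 on the opposite strand. Lonp1, which encodes a mitochondrial protease, starts 1256 bp upstream of Catsperd and also runs away from it. CUT&RUN fragments carry no strand, so the signal of such paired starts could not be divided between their genes.

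RefSeq promoter sequences (GRCm38.p6, 250 bases before to 50 after each start) were matched for 6 of the 7 genes. They are shown for 4 of these because they span the range of CpG content under which H3K4me3 was found. The bases just upstream of the RefSeq start are given 5′ to 3′ on the gene's strand, and capitals mark matches to GGGCGG or CCAAT on either strand. Only 30 bases are shown for Catsper2, and all 30 lie past the start of Pdia3, in annotated untranslated transcript sequence. The CpG content of the Catsper2 promoter is thus that of a start shared with Pdia3.
Catsper2 at chr2:121413793-121413822 (-): cgggcgcgcggggcgaggcgGGGCGGacgc
Catsperb at chr12:101404573-101404672 (+): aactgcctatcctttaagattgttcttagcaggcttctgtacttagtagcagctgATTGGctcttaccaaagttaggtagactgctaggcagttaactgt
Catsper4 at chr4:134227384-134227483 (-): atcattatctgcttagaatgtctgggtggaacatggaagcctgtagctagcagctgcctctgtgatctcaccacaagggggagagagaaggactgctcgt
Catsperd, upstream RefSeq start at chr17:56626947-56627046 (+): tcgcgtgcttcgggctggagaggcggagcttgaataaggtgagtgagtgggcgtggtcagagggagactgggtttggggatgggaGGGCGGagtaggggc
Catsperd, gene start at chr17:56628043-56628142 (+): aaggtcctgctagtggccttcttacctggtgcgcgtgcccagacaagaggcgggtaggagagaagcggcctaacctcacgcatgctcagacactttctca
The 300-base Catsper2 promoter held 41 CpG dinucleotides, more than or as many as 97.0% of 32851 mouse promoters of that length, whereas the Catsperb promoter held 1, the Catsper4 promoter 2, and the Catsper3 promoter 3 (median of all promoters, 7). The Catsperg1 promoter held 8, and 9 at a second RefSeq start 3110 bp inside the gene. The Catsperd promoter held 12 at the gene start and 29 at a RefSeq start 1096 bp upstream. The window of that upstream start also holds the start of Lonp1. Its CpG and motif content could thus not be assigned to Catsperd alone. Of the motifs searched on both strands, GGGCGG (in 35.7% of all promoters) occurred 3 times in Catsper2, with 2 of these overlapping each other, once at the upstream Catsperd start, and once at the second Catsperg1 start. CCAAT (37.4%) occurred 2 times in Catsper2, 85 and 35 bp upstream, and once in Catsperb, 45 bp upstream. TGACGT (7.51%) occurred only at the upstream Catsperd start, and TATAAA (13.6%) only at the first start of Catsperg1, whose promoters are not shown. No match to these motifs was present in the windows of Catsper3 and Catsper4.

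Within 1 kb of the 7 gene starts, H3K4me3 was at mean levels between 11.9 and 28.3 CPM, against a median of 3.24 over all genes. At Catsperd 64 of these fragments lay upstream of the start, toward Lonp1, and 34 downstream. In a window of 500 bp its call over IgG was lost, as given below. IgG held only 1 fragment within 1 kb of this start, so that fit rests on the prior count. It cannot decide whether H3K4me3 at the Catsperd start itself exceeded the background. The H3K4me3 domain described below covered this start. Catsper2 had the highest level at 28.3 ± 4.22 (SD, n = 4 libraries of both genotypes), followed by Catsperb at 27.5 ± 4.21, Catsper3 at 23.9 ± 1.88, Catsperg1 at 23.6 ± 6.11, Catsper4 at 19.9 ± 3.88, Catsper1 at 13.5 ± 2.74, and Catsperd at 11.9 ± 2.35. These means stood at the 69.3rd (Catsperd) to the 97.1st (Catsper2) percentile of all genes. Neighbors in this order mostly did not separate. Catsper2 exceeded Catsperb in 2 of 4 libraries and Catsper3 exceeded Catsperg1 in 2 of 4, whereas Catsperb exceeded Catsper3 and Catsper4 exceeded Catsper1 in 4 of 4. Among the genes with a CpG-poor promoter, Catsperb was close to the CpG-rich Catsper2 and Catsper4 was lower, with 3 of its 4 libraries below every Catsper2 library.

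**Figure D1:**
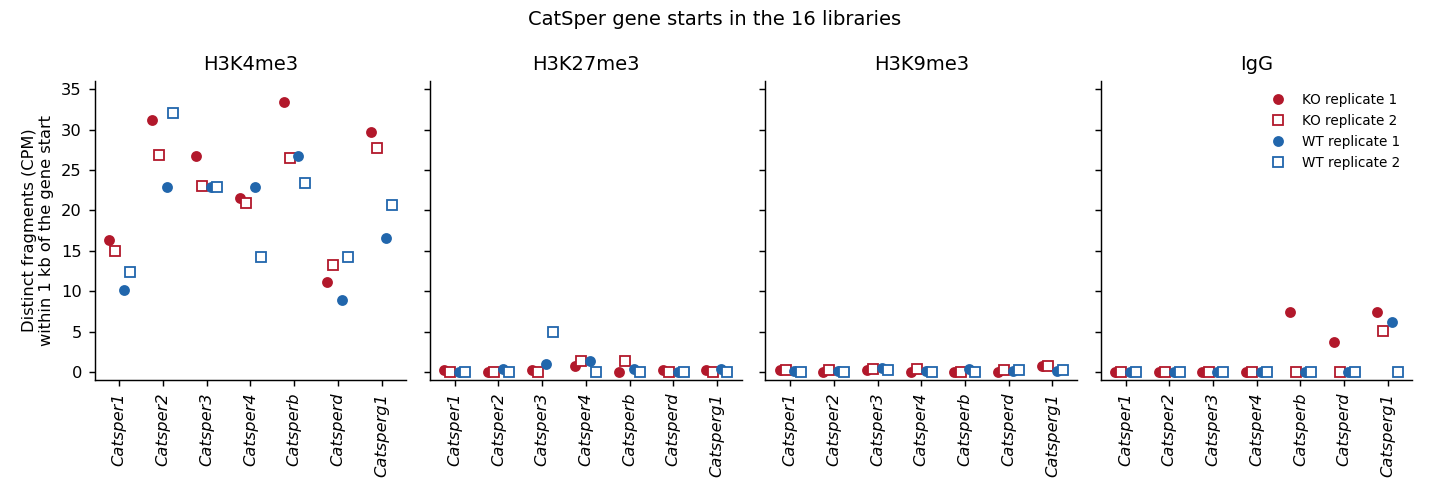
H3K4me3, H3K27me3, H3K9me3, and IgG levels in CPM within 1 kb of each CatSper gene start (y axis) in 4 panels, with 1 point per library and the genotype and replicate given by color and shape. H3K4me3 lies between 8.92 and 33.4 at every start, whereas H3K27me3 and H3K9me3 stay at or below 4.99. IgG reaches 7.39 at Catsperb and at Catsperg1 in KO replicate 1, on 2 fragments each.

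The values of the single H3K4me3 libraries were as follows. Values are given for replicate 1 and then replicate 2. The pore-forming Catsper1 had 22 and 51 fragments in KO and 8 and 27 in WT, or 16.3 and 15.02 against 10.2 and 12.4 CPM. In Catsper2, counts of 42 and 91 in KO and 18 and 70 in WT gave 31.2 and 26.8 against 22.9 and 32.1 CPM. Both KO libraries lay above both WT libraries at Catsper1, and the genotypes overlapped at Catsper2. In Catsper3, counts of 36 and 78 in KO and 18 and 50 in WT gave 26.7 and 22.98 against 22.9 and 22.9 CPM. In Catsper4, counts of 29 and 71 in KO and 18 and 31 in WT gave 21.5 and 20.9 against 22.9 and 14.2 CPM. The KO libraries of Catsper3 lay just above its WT libraries, and those of Catsper4 lay between the 2 WT values.

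Among the accessory subunits, Catsperb had 45 and 90 fragments in KO and 21 and 51 in WT, or 33.4 and 26.5 against 26.8 and 23.4 CPM. Catsperd had 15 and 45 in KO and 7 and 31 in WT, or 11.1 and 13.3 against 8.92 and 14.2 CPM. The genotypes overlapped at both genes. Catsperg1 had 40 and 94 in KO and 13 and 45 in WT, or 29.7 and 27.7 against 16.6 and 20.6 CPM, with both KO libraries above both WT libraries. Of the words of 25 bases, the read length of the study, in the Catsperg1 start window, only 50.3% occur once in the genome, against 77.3% to 98.3% in the other 6 windows. The window shares 37.2% of its words with that of Catsperg2, the neighboring copy of the gene, whose own level was 21.7 ± 1.98. Counts of Catsperg1 and Catsperg2 are therefore uncertain, since reads could be assigned to either copy.

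H3K4me3 at the starts was compared with the IgG background to ask whether the signal exceeded it. In IgG, Catsper1, Catsper2, Catsper3, and Catsper4 had 0 fragments within 1 kb of the start in all 4 libraries, Catsperd had 1, Catsperb had 2, and Catsperg1 had 4. Set against a floor of 3 fragments over the pooled IgG libraries (3.79 CPM), pooled H3K4me3 was at least 7.56-fold higher at Catsper2, at least 6.23-fold higher at Catsper3, at least 5.10-fold higher at Catsper4, and at least 3.70-fold higher at Catsper1. At Catsperb the ratio was 10.6 (95% exact interval 2.90 to 88.3), at Catsperd 10.1 (1.76 to 401), and at Catsperg1 4.93 (1.89 to 18.3). These intervals and the floor cover counting error only, and the ratios, which have no floor, are not on one footing with the bounds. With limma-voom, all 7 genes were called higher in H3K4me3 than in IgG, with Benjamini-Hochberg adjusted p between 0.000209 and 0.00528, as were 73.6% of the 12886 genes tested. The median log2 difference of the 7 genes was 2.75, against 1.93 over all genes tested, and these fitted differences depend on the prior count where IgG is at 0. With so few IgG fragments, the CatSper starts passed the filter of 10 fragments through their H3K4me3.

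The Catsperg1 call depended on single libraries, with an adjusted p of 0.0696 without H3K4me3 WT replicate 1 and 0.0814 without H3K4me3 WT replicate 2. With every deposited fragment counted, the calls of Catsperb, Catsperd, and Catsperg1 were lost (adjusted p 0.406, 0.645, and 0.118), as was that of Catsper4 in a window of 2 kb (0.166) and that of Catsperg1 in one of 500 bp (0.0517). In a window of 500 bp the log2 difference of Catsperd fell from 1.76 to 0.05 (adjusted p = 0.922).

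H3K27me3 and H3K9me3 gave few fragments at the gene starts, as at most genes (median over all genes 0.351 and 0.148 CPM). Above these medians, H3K27me3 was at 1.57 ± 2.32 CPM at Catsper3, 0.894 ± 0.661 at Catsper4, and 0.438 ± 0.665 at Catsperb (SD, n = 4). H3K9me3 was above its median at Catsperg1 (0.467 ± 0.330), Catsper3 (0.341 ± 0.123), and Catsper1 (0.1625 ± 0.123). The H3K27me3 mean of Catsper3 rests largely on 1 fragment in WT replicate 2 (4.99 CPM), the smallest H3K27me3 library. H3K27me3 counted at most 4 fragments in any library at any of the 7 starts, and the pooled sum was highest at Catsper4 (8 fragments) and Catsper3 (5 fragments). The Catsper4 fragments were 3 and 1 in KO and 4 and 0 in WT. H3K9me3 counted at most 3 per library at 6 of the starts. At Catsperg1 it counted 5 and 4 in KO and 1 and 1 in WT, where IgG counted 2 and 1 in KO and 1 and 0 in WT. Pooled H3K4me3 exceeded pooled H3K27me3 by 18.4-fold at Catsper4 (95% exact interval 9.09 to 43.4) and 35.9-fold at Catsper3 (15.1 to 112), and it exceeded H3K9me3 by 52.4-fold at Catsperg1 (28.6 to 107). None of the 7 starts passed the filter of 10 fragments for a test of H3K27me3, and Catsperg1 alone did for H3K9me3. It was called lower than IgG (log2 difference -3.85, limma-voom adjusted p = 0.00522), as were 24.5% of the 4611 genes tested. With every deposited fragment counted this call was lost, as 0 genes were called (1907 at an unadjusted p under 0.05), and without 1 library in turn 29 to 2022 genes were called in either direction, 29 without IgG KO replicate 1.

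Around the starts, H3K4me3 formed domains of several kilobases, described in 500-bp bins that held at least 5 times the genome mean of the pooled libraries (8 or more fragments), a rule chosen after the profiles were seen. The domain was widest at Catsper1, where it ran over 10000 bp from 2500 bp upstream to 7500 bp downstream and so covered most of the gene, with 453 fragments. At Catsper4 it ran from 2000 bp upstream to 5500 bp downstream (389 fragments), and at Catsper2 from 3000 bp upstream, over Pdia3, to 3500 bp downstream (434 fragments). Catsperb had a domain of 6000 bp (369 fragments) and Catsper3 one of 4000 bp (298 fragments).

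At Catsperd the domain reached farther upstream than downstream, from 3000 bp upstream to 1500 bp downstream (237 fragments), so that it covered the upstream RefSeq start and the start of Lonp1. Within 1 kb of the Catsperd gene start, 34 fragments lay downstream and 64 upstream, or 34.7% downstream (95% Wilson interval 26.01% to 44.5%). The share downstream was 61.1% at Catsper4 (53.1% to 68.5%), the highest of the 7 genes. In single libraries it varied between 14.3% and 48.4% at Catsperd and between 37.9% and 74.2% at Catsper4.

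**Figure D2:**
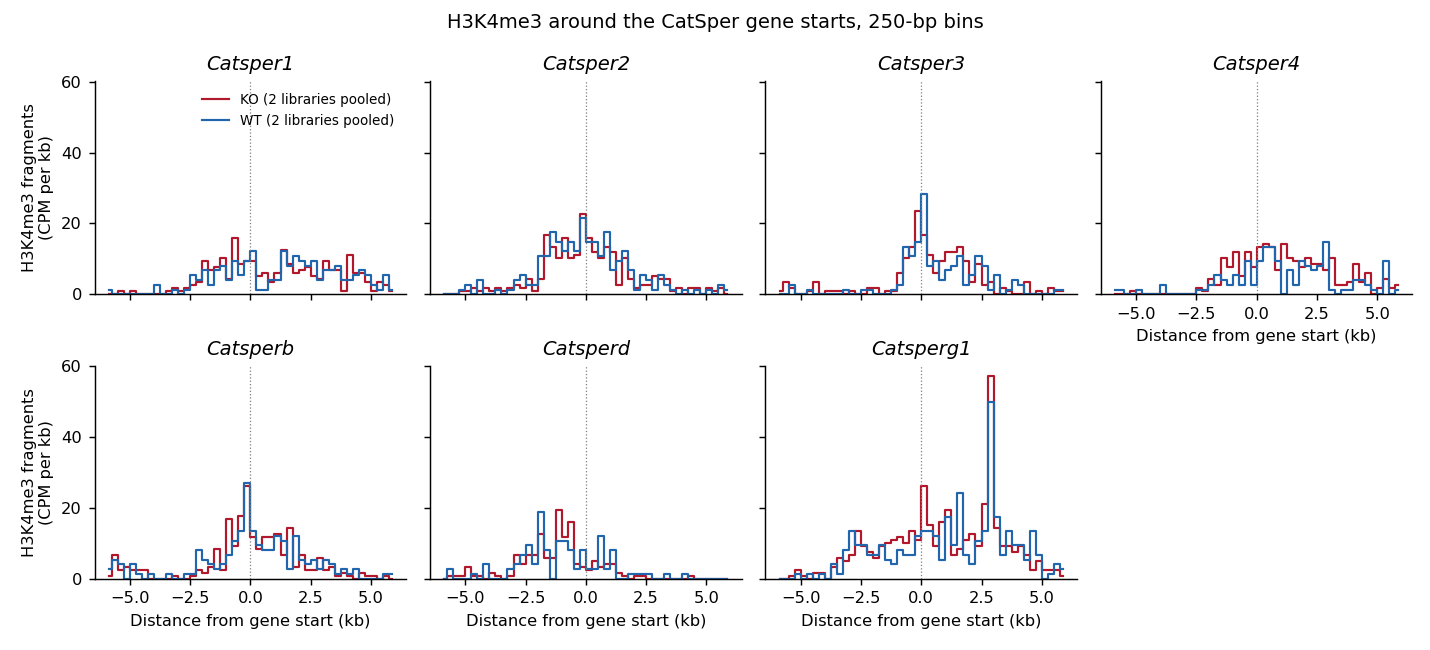
H3K4me3 fragments in CPM per kb (y axis) in 250-bp bins by distance from the gene start (x axis, positive into the gene), with the 2 libraries of each genotype pooled. H3K4me3 is broad and low at Catsper1 and densest in the 500 bp before the start at Catsper2 and Catsperb. At Catsper3 the densest bin lies just before the start in KO (28 fragments, against 20 just after it). In WT it lies just after the start (21 fragments, against 11 just before it). This difference was not tested. It extends farther upstream than downstream at Catsperd, and is topped by a narrow maximum inside Catsperg1 that IgG shares.

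At Catsperg1 the domain spanned 8500 bp and held 758 fragments, and its highest bin lay inside the gene. Between 2750 and 3000 bp after the start, 105 H3K4me3 fragments were counted, near 2 annotated transcript starts at 2540 and 2951 bp. IgG also held 8 fragments in these 250 bp. Scaled to depth, H3K4me3 was 1.35-fold IgG there (95% exact interval 0.659 to 3.20), against 4.86-fold (2.98 to 8.55) over the whole domain, so the narrow maximum was not distinguishable from background. Of the 105 fragments, 65 were at most 120 bp and 28 at least 150 bp long.

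The body of Catsper4 held 13 IgG fragments, 10 in KO replicate 2, 3 in WT replicate 2, and 0 in both libraries of replicate 1. The 10 KO fragments lay between 1000 and 1500 bp after the start, within the H3K4me3 domain. Farther inside the genes, Catsperb had 61 H3K4me3 fragments between 42500 and 44500 bp after its start, at 1.04-fold IgG (0.453 to 2.95). Catsperd had 61 between 31500 and 33500 bp, where IgG had 0, or at least 2.09-fold higher. Further runs with 25 and 35 fragments lay near the 3′ end of Catsperd, where IgG also had 0. Against the floor of 3 IgG fragments, their bounds were only 0.8553-fold and 1.197-fold. The bound of the run with 25 fragments is below equality, so it cannot decide whether that run exceeded the background. The bound of the run with 35 fragments is barely above equality. These runs add to the body count of Catsperd, which differed between replicates. Its body level was 14.1 CPM in KO replicate 1 and 40.1 in KO replicate 2, and 15.3 and 43.6 in WT. A run of 17000 bp with 1464 fragments, more than at any CatSper start, began near the 3′ end of Catsperg1 and reached into Spred3, Ggn, and Psmd8, whose starts lie there, and so adds to the body count of Catsperg1.

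Over the gene bodies, from the first to the last annotated base, H3K4me3 per kb was highest in the shortest gene, Catsper1, at 5.45 ± 1.76 CPM per kb in KO and 4.90 ± 0.248 in WT (SD, n = 2 each). It was lowest in the longest gene, Catsperb, at 0.337 ± 0.0400 and 0.348 ± 0.0208. With limma-voom, 6 of 7 bodies were called higher in H3K4me3 than in IgG, as were 44.3% of 18411 genes tested, and Catsperb was not (log2 difference -0.42, adjusted p = 0.204). Pooled IgG held 2 fragments in Catsper1, 3 in Catsper2, 2 in Catsper3, and 4 in Catsperd, against 321, 255, 276, and 262 for H3K4me3. These bodies passed the filter through their H3K4me3, which favors such calls. Their pooled ratios were 16.5, 8.72, 14.2, and 6.72, with exact intervals starting at 4.52, 2.95, 3.88, and 2.595. The calls of Catsper4 (adjusted p = 0.0198) and Catsperd (0.0161) depended on single libraries. Catsper4 lost its call without any of H3K4me3 KO replicate 2, H3K4me3 WT replicate 1 or 2, IgG KO replicate 1, and IgG WT replicate 1. Catsperd lost it without H3K4me3 WT replicate 2, either IgG KO replicate, or IgG WT replicate 1, and the adjusted p of these fits ranged from 0.0522 to 0.124.

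For H3K27me3, 0 of 7 bodies were called higher than IgG and 2 were called lower, Catsperb (log2 difference -3.10) and Catsperg1 (-3.00). The shares over 15142 genes were 27.8% higher and 25% lower. For H3K9me3, 0 were called higher and 4 lower (Catsper1, Catsper2, Catsper4, and Catsperb), against 4.92% higher and 63% lower over 17837 genes. Pooled IgG held only 2 fragments in Catsper1 and 3 in Catsper2. The pooled ratios of H3K9me3 to IgG were 0.222 (exact interval 0.0503 to 2.03) and 0.2165 (0.0637 to 1.14). By counting error alone, neither differed from equality. By the same measure the ratios of Catsper4, 0.0736 (0.0369 to 0.155), and Catsperb, 0.501 (0.399 to 0.638), were below it. The IgG fragments of Catsper4 all came from replicate 2, with 10 in KO and 3 in WT. Its interval does not cover this spread between libraries. With the sibling pair as a block, Catsperd was also called lower in H3K27me3 (adjusted p = 0.0418), and Catsperd and Catsperg1 also in H3K9me3 (0.0357 and 0.038). Catsperd held 4 pooled IgG fragments, and its pooled ratios to IgG were 0.39 (0.124 to 1.61) for H3K27me3 and 0.615 (0.23 to 2.32) for H3K9me3. Per kb, H3K9me3 was higher in Catsperg1, at 0.363 ± 0.0437 in KO and 0.330 ± 0.0260 in WT, and in Catsperb, at 0.197 ± 0.0488 and 0.249 ± 0.0516, than the median of all genes (0.0658). IgG per kb was above its own median (0.193) in these genes too, at 0.719 in Catsperg1 and 0.452 in Catsperb.

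The KO and WT libraries were compared to ask whether loss of H2A.B altered these marks at the CatSper genes. With limma-voom, 0 of 7 starts were called in H3K4me3, as were 0% of the 12780 genes tested, 399 of which had an unadjusted p under 0.05, none of them a CatSper gene. The log2 differences (KO minus WT ± SE) were 0.39 ± 0.38 at Catsper1, 0.06 ± 0.34 at Catsper2, 0.11 ± 0.34 at Catsper3, 0.34 ± 0.35 at Catsper4, 0.29 ± 0.34 at Catsperb, -0.01 ± 0.39 at Catsperd, and 0.57 ± 0.34 at Catsperg1, all with an adjusted p of 0.999. Their median was 0.29, against 0.17 over all genes tested, and quantile normalization moved the latter to 0.00 and turned the signs at Catsper2 (-0.23) and Catsper3 (-0.14). Both KO libraries exceeded both WT libraries at 3 of 7 starts (Catsper1, Catsper3, and Catsperg1), as at 27.8% of all genes tested. With the sibling pair as a block, Catsperg1 had an unadjusted p of 0.0488 and an adjusted p of 0.641.

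Within the pairs, KO exceeded WT in both at 4 of 7 starts (Catsper1, Catsper3, Catsperb, and Catsperg1). The shares of all genes with such orders within pairs, at starts or over bodies, were not counted, so these counts are a description only. The fitted log2 difference was positive at 8509 of the 12780 starts tested, and at 6 of the 7. KO exceeded WT at 6 of 7 starts in pair 1 (ratios 0.938 to 1.79) and at 5 of 7 in pair 2 (0.835 to 1.47), and each of these 14 ratios had a 95% counting interval that included 1. The ratio at Catsper2 was 1.36 (0.765 to 2.51) in pair 1 and 0.835 (0.605 to 1.16) in pair 2. At Catsperg1 it was 1.79 (0.938 to 3.65) and 1.34 (0.931 to 1.96). Over the bodies KO exceeded WT at 5 of 7 genes in pair 1 and 2 of 7 in pair 2. Of the 14 intervals, 1 excluded 1, that of Catsper2 in pair 2 (0.739, 0.549 to 0.996). The intervals were not adjusted for their number. The fitted log2 difference was positive at 10366 of the 18143 bodies tested, and at 3 of the 7. Differences within these intervals were not detectable at this depth.

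Over the gene bodies, 0 of 7 genes were called in H3K4me3 between KO and WT (0% of 18143 genes, 51 with an unadjusted p under 0.05), with log2 differences between -0.18 (Catsperd) and 0.22 (Catsper4) and a median of -0.05, against 0.05 over all genes. H3K27me3 (6 bodies tested), H3K9me3 (7 tested), and IgG (3 tested) gave 0 calls as well, at 0% of 13540, 17263, and 5181 genes, of which 7, 97, and 71 had an unadjusted p under 0.05. With limma-trend the counts called were 0 as well. With the sibling pair as a block, H3K9me3 bodies gave 38 higher and 7 lower calls and IgG bodies 9 higher and 28 lower, and 0 of the CatSper bodies were called. H3K9me3 at the Catsperg1 start, the only CatSper start tested for that mark, had a log2 difference of 1.65 ± 1.93 (adjusted p = 0.993, 0% of 4286 genes called, 74 unadjusted).

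**Figure D3:**
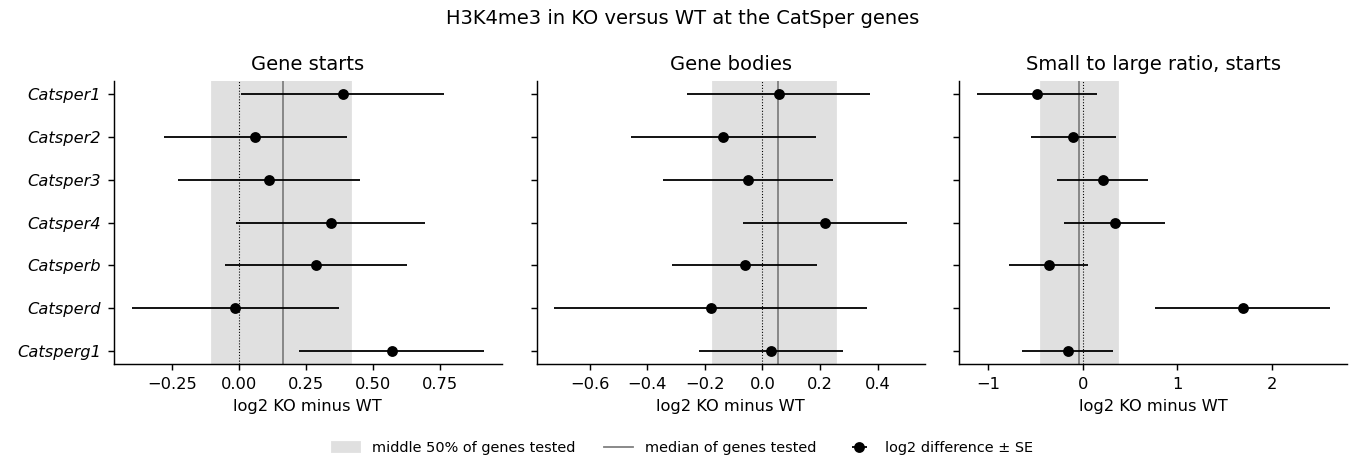
Log2 difference between KO and WT (x axis) ± SE for each CatSper gene, for H3K4me3 at starts, H3K4me3 over bodies, and the H3K4me3 ratio of small to large fragments at starts after centering, with the median and the middle 50% of all genes tested in gray. The values at starts and over bodies lie between -0.18 and 0.57, and the ratio at Catsperd, 1.69, stands apart from the other 6 with a wide error. The Catsperd ratio rests on 20 small fragments in KO and 2 in WT.

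Fragment length was compared between sub-nucleosomal fragments (small, at most 120 bp) and nucleosome-sized fragments (large, at least 150 bp). The paper attributes sub-nucleosomal fragments either to nucleosomes that are partly unwrapped or to nearby DNA held by other proteins. Which of these gave the small fragments here was not tested. Summed over the 7 starts, H3K4me3 gave 93 small and 125 large fragments in KO replicate 1, 217 and 278 in KO replicate 2, 38 and 61 in WT replicate 1, and 73 and 208 in WT replicate 2. The share of small among small and large fragments, without those of intermediate length, was 42.7% (95% Wilson interval 36.3% to 49.3%) and 43.8% (39.5% to 48.2%) in KO and 38.4% (29.4% to 48.2%) and 25.98% (21.2% to 31.4%) in WT. The ratio of small to large was thus 0.744 and 0.781 in KO and 0.623 and 0.351 in WT. Over all gene starts it was 0.655 and 0.619 in KO and 0.410 and 0.324 in WT, with both KO libraries above both WT libraries there too. The IgG libraries had the same order over all gene starts, at 0.565 and 0.513 in KO and 0.460 and 0.396 in WT, and the part of this background in the H3K4me3 ratio was not tested.

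Both KO libraries had a higher ratio than both WT libraries at Catsper1, Catsper4, Catsperb, and Catsperd, 4 of 7 starts, as at 49.1% of 9864 genes. At Catsperd, small and large fragments numbered 4 and 10 in KO replicate 1, 16 and 29 in KO replicate 2, 0 and 7 in WT replicate 1, and 2 and 26 in WT replicate 2. At Catsperb, the start with the highest small share, they numbered 23 and 20, 43 and 41, 7 and 14, and 23 and 25 in the same order. Small fragments made up 33.9% (23.1% to 46.6%) of the pooled KO and 5.71% (1.58% to 18.6%) of the pooled WT small and large fragments of Catsperd. These intervals cover counting error only and not the spread between libraries. Most fragments of the Catsperd window lay upstream of the start, toward Lonp1, as given above. The genotypes overlapped at Catsper2, Catsper3, and Catsperg1, where WT replicate 1 had 11 small and 6 large, 9 and 8, and 5 and 7 fragments. After each library was centered on its median, 0 of 7 genes were called by limma on the log2 ratio, against 0.0101% of 9864 genes. Catsperd differed most (1.69 ± 0.92, with an unadjusted p of 0.067 and a Benjamini-Hochberg adjusted p of 0.991 from limma). With 20 small fragments in KO and 2 in WT, Catsperd passed the filter of 10 small fragments through KO, where its ratio is high. Its value also depends on the pseudocount of 0.5, since WT replicate 1 had 0 small fragments. The median of the 7 was -0.10, against -0.04 over all genes. Without centering it was 0.73, against 0.79 over all genes, and all 7 values were positive with 0 called. Of the 9864 genes tested, 8885 were positive in that fit and 27 were called. For H3K9me3 over bodies, 4 CatSper genes could be tested and 0 were called (0.169% of 10048 genes).

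**Figure D4:**
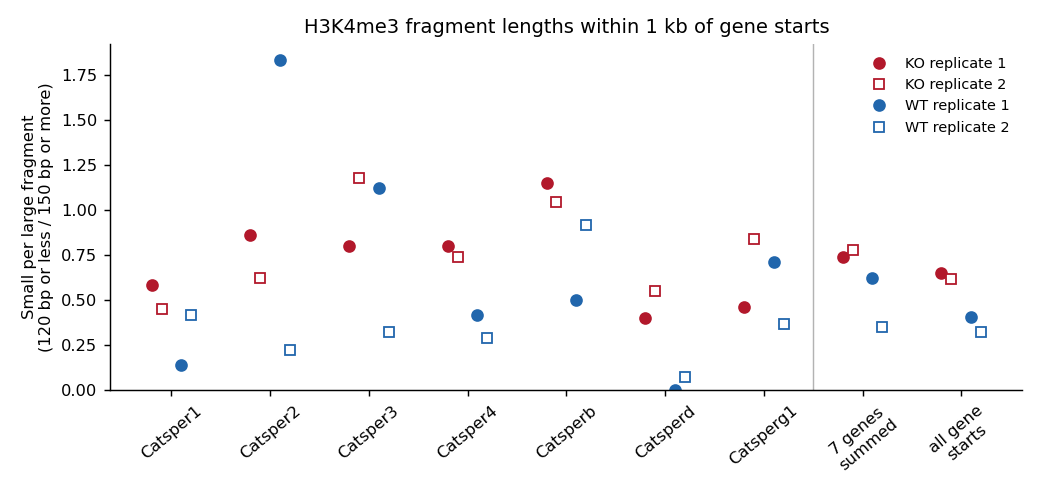
Small per large H3K4me3 fragment within 1 kb of each CatSper gene start (y axis, linear), for the 7 genes summed, and for all gene starts, with 1 point per library. The 2 KO libraries lie above the 2 WT libraries in the sum (0.744 and 0.781 against 0.623 and 0.351) and over all starts, and single genes scatter widely.

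The other genes of the channel and of sperm motility signaling were taken as a list, of which 17 were protein-coding genes in the annotation. Of these, 15 passed the filter at their starts, mostly through their H3K4me3, and Atp2b4 and Hvcn1 did not. With limma-voom 14 of the 15 were called higher in H3K4me3 than in IgG (13 with limma-trend), a count that the filter favors, as were 73.6% of all genes tested. The one not called by limma-voom is Prkaca (log2 difference 0.00, adjusted p = 1), named after its value was seen, which encodes a catalytic subunit of protein kinase A. The Prkaca start held 40 H3K4me3 fragments (mean 4.67 CPM) and 2 IgG fragments. With so few IgG fragments the fitted difference depends on the prior count, so it does not show an absence of H3K4me3. The highest mean levels were those of Abhd2, a lipid hydrolase (33.6 ± 8.82, SD, n = 4), and Kcnu1, the sperm potassium channel (30.9 ± 7.995). Next were the levels of Adcy10, the soluble adenylyl cyclase (25.3 ± 6.07), and Tmem262 (25.01 ± 4.95). The lowest were those of Atp2b4, a plasma membrane calcium pump, with 0 H3K4me3 fragments in 3 libraries and 1 in WT replicate 2, and Hvcn1, a proton channel, with 0 in all 4. Atp2b4 carried H3K27me3 instead, with 145 and 15 fragments in KO and 95 and 5 in WT, or 29.2 ± 7.67 CPM. Hvcn1 had 1 H3K27me3 fragment over the 4 libraries. Between KO and WT, 0 of the 15 were called in H3K4me3 (0% of all genes tested), with log2 differences from -0.28 to 0.58 and a median of 0.22, against 0.17 over all genes tested.

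**Figure D5:**
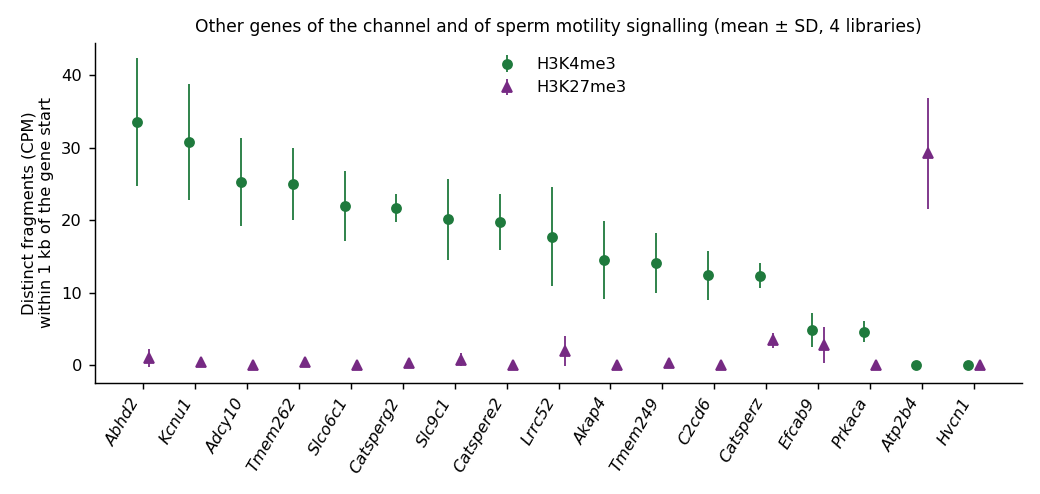
Mean level in CPM within 1 kb of the gene start (y axis) ± SD over 4 libraries for H3K4me3 and H3K27me3 at the 17 other genes, ordered by H3K4me3. H3K4me3 falls from 33.6 at Abhd2 to 0 at Hvcn1, and Atp2b4 is the one gene with high H3K27me3 (29.2).

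Over the 16 libraries, the starts whose log2 level was most alike to the mean of the 7 CatSper starts were those of Klhdc1 (Pearson r = 0.991), Pgm3 (0.990), Slc33a1 (0.990), Wdr48 (0.990), and Gm1673 (0.990). Each had H3K4me3 between 12.1 and 25.3 CPM and 0 fragments of H3K27me3, H3K9me3, and IgG. The pattern was common, since 20.1% of the 21858 genes compared had r over 0.95. The 16 points share targets, animals, and depth, so these values are a description.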

How the data were processed

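Haploid spermatids were profiled by AutoCUT&RUN in 16 libraries. The authors aligned paired reads to mm10 with Bowtie2 (version 2.3.4.3 per the submitters' notes) and deposited 1 fragment list for each library, which gives positions (chromosome, start, and end) and lengths in bp, neither scaled nor pooled. These positions and lengths are not counts per gene. The methods state that duplicates were removed, but 33.6% to 83.4% of listed fragments repeat the coordinates of another. Each combination of coordinates was therefore counted once, on chromosomes 1 to 19, X, and Y. A fragment belonged to the window or the gene record that held its midpoint.

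Counts were tested with limma-voom 3.58.1 (R 4.3.3), scaled to library size, on genes with at least 10 fragments over the libraries compared. The ratio of small to large fragments was tested with limma on log2 values with a pseudocount of 0.5, on genes with at least 10 of each, weighted by counting variance. Adjusted p-values are Benjamini-Hochberg values over all genes tested, called under 0.05. An exact two-sided permutation test of 2 libraries against 2 cannot give a p under 0.333. Intervals are 95%, Wilson for shares and exact otherwise.

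The paper's methods name 2 sibling pairs, and titles share number codes per replicate number, so equal numbers were taken as pairs. What the codes stand for is not stated. They differ between the replicate numbers, so the sibling pair cannot be told apart from anything else that differs with them. Deviations from group means correlated within pairs by 0.242 for H3K4me3, 0.298 for H3K27me3, 0.196 for H3K9me3, and 0.215 for IgG across gene starts, and by 0.371, 0.585, 0.48, and 0.149 across gene bodies. For each target, the same replicate number was the deeper one in KO and in WT. These correlations therefore do not show that equal numbers are siblings. The main fit had no block. The CatSper genes and all lists were chosen with earlier results of these data known. The rule named the 7 genes, the 4 listed genes with the highest and the 2 with the lowest H3K4me3, and the 5 genes most alike over the libraries by log2 values with a pseudocount of 1. Other values were computed in Python 3.11.15 (SciPy 1.17.1, NumPy 2.4.6) and plotted with matplotlib 3.10.9.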

Additional observations from a re-analysis of the deposited data

How the results depend on the processing

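With 2 libraries per group and 784360 to 3394830 distinct H3K4me3 fragments per library, single CatSper starts rest on 7 to 94 fragments, and IgG libraries hold at most 270598 fragments. No CatSper gene was called between KO and WT in H3K4me3 under any of the 13 alternatives at starts, the 10 over bodies, or the 9 for the fragment ratio (smallest adjusted p 0.641, 0.982, and 0.151). Of 98 refits of H3K4me3 against IgG at the 7 starts, 90 kept the call. A lone sample left in a group was assumed to vary like the other groups. The cause of each change below was not tested.

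Calls were lost at starts when every deposited fragment was counted (Catsperb, Catsperd, and Catsperg1, adjusted p 0.406, 0.645, and 0.118), in a window of 500 bp (Catsperd and Catsperg1, 0.922 and 0.0517), and in a window of 2 kb (Catsper4, 0.166). Over bodies Catsper4 also lost its call without the first 1 kb of the record (0.0561) and with limma-trend (0.0795).

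Counts of genes called between KO and WT moved as follows. At H3K27me3 starts, from 0, there were 9 in a window of 2 kb, 1 without the filter, and 1 with the sibling pair as a replicate block. Over H3K27me3 bodies, from 0, there were 3 with every deposited fragment and 1 without the filter. Over H3K9me3 bodies, from 0, there were 45 with the replicate block, and over IgG bodies, from 0, 37 with the block, 4 with every deposited fragment, and 7 without the filter. For the H3K4me3 ratio, from 1, there were 4 with every deposited fragment and 27 without centering. For the H3K9me3 ratio, from 17, there were 0 with every deposited fragment, 1 with a minimum of 5 fragments, 0 with a pseudocount of 1, and 0 without centering. The limma fits with 0 had 478, 233, and 10 genes with an unadjusted p under 0.05. The block changed no H3K4me3 call of a CatSper gene between KO and WT.

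Counts called against IgG moved at H3K4me3 starts, from 9740 to 16689 without the filter, and at H3K27me3 starts, from 4630 to 14215 without it. At H3K9me3 starts, from 1145, there were 0 with every deposited fragment (1907 unadjusted, limma-voom), 5064 in a window of 2 kb, 19564 without the filter, 3515 with limma-trend, and 2299 with the replicate block. Over H3K9me3 bodies there were 5182 with every deposited fragment, from 12121.

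Leaving out 1 library in turn gave 0 to 9 calls at H3K4me3 starts (9 without WT replicate 2), 0 to 15 at H3K27me3 starts (15 without KO replicate 1, 1 without WT replicate 1), 0 to 5 over H3K27me3 bodies (5 without WT replicate 1), 1 to 53 over H3K9me3 bodies (53 and 5 without KO replicates 1 and 2, 1 and 16 without WT replicates 1 and 2), 0 to 2 for the H3K4me3 ratio (2 without either KO replicate, 0 without WT replicate 2), and 0 to 16 for the H3K9me3 ratio (0 without KO replicate 2 or WT replicate 1). Against IgG it gave 29 to 2022 calls at H3K9me3 starts (29 and 102 without IgG KO replicates 1 and 2, 115 and 257 without IgG WT replicates 1 and 2, 2022 without H3K9me3 WT replicate 2), 4375 to 8897 over H3K27me3 bodies (4375 without H3K27me3 KO replicate 1, 4678 without H3K27me3 WT replicate 1), and 4099 to 12254 over H3K9me3 bodies (6093 and 4951 without IgG KO replicates 1 and 2, 5841 and 4099 without IgG WT replicates 1 and 2, 7837 without H3K9me3 WT replicate 1).

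Signs of uncalled log2 differences between KO and WT turned often. At starts, Catsperd reached 0.20 with every deposited fragment, 0.039 in a window of 2 kb, 0.021 by any overlap, and 0.079 with limma-trend. Catsper2 was at -0.0084 without the filter, -0.23 with quantile normalization, and -0.047 with the replicate block, and Catsper3 at -0.14 with quantile normalization. Over bodies, Catsperb reached 0.26 with every deposited fragment. Without the first 1 kb, Catsper1 was at -0.0091, Catsper3 at 0.063, and Catsperg1 at -0.082. Catsperg1 was at -0.048 with quantile normalization and -0.0014 with the replicate block. For the ratio, Catsper4 was at -0.31 with every deposited fragment, and without centering Catsper1 was at 0.40, Catsper2 at 0.73, Catsperb at 0.47, and Catsperg1 at 0.67.

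Leaving out 1 library gave ranges at starts of -0.16 to 0.35 (Catsper2), -0.012 to 0.21 (Catsper3), -0.13 to 0.56 (Catsper4), and -0.18 to 0.41 (Catsperd). Over bodies they were -0.22 to 0.46 (Catsper1), -0.34 to 0.22 (Catsper2), -0.19 to 0.033 (Catsper3), -0.16 to 0.084 (Catsperb), -1.03 to 0.74 (Catsperd), and -0.13 to 0.29 (Catsperg1). For the ratio they were -0.78 to 0.83 (Catsper1), -1.84 to 0.60 (Catsper2), -0.61 to 0.65 (Catsper3), -0.76 to 0.56 (Catsperb), and -0.90 to 0.083 (Catsperg1).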
